A study of Mus musculus with 12 samples.

Results

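The 10 genes described here belong to the melanocyte lineage and its pigment organelle, the melanosome: Pmel, Tyrp1, Dct, Mlana, Sox10, Tyr, Mitf, Gpnmb, Slc45a2 and Oca2. They were chosen by gene symbol, as markers of RNA from melanoma cells, among 17397 genes in a table of estimated read counts from mouse hearts, and all 10 had a row in it. No gene was dropped for low values. The question was how much of this RNA each heart library held after B16F10 cells, a mouse melanoma line, were given through the tail vein. Levels are CPM, a gene's counts scaled to a common library total.

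The hearts came from wild-type male C57BL/6J mice aged 8 weeks, in 4 groups of 3 libraries. Control mice stayed untrained in their cages and carry the label saline. Trained mice had treadmill sessions on 5 days a week over 4 weeks. The speed after the adaptation in week 1 was 6 m/min for the opening 5 min and 12 m/min for the remaining 35. Tumour mice were untrained and received 100000 B16F10 cells from week 2. Tumour trained mice received the same number of cells and ran as the trained mice did. Every mouse is an immune-competent host of the strain from which the B16 line came, and the injected cells form 1 established line. Where the tumours grew was not recorded in the labels. Nor do the labels say that each library is a separate mouse, so a p-value here covers only how far these libraries scatter, which may be technical scatter.

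Melanocytes make melanin inside melanosomes, which are relatives of lysosomes. Sox10, a transcription factor of the neural crest, acts upstream of Mitf, the basic helix-loop-helix factor at the head of the pigment programme. Mitf binds E-box motifs in the promoters of the pigment enzyme genes Tyr, Tyrp1 and Dct. Pmel forms the fibrils on which melanin is laid down, Mlana is a small melanosome protein, and Slc45a2 and Oca2 are membrane transport proteins that set melanosome pH. Gpnmb is a membrane glycoprotein related to Pmel. Several of the 10 are not restricted to pigment cells: Gpnmb is also made by macrophages, Sox10 by glia of nerves, and Mitf, from other starts, in many tissues including heart. Dct has been described in melanocyte-like cells of the normal mouse heart.

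Tumour 1 and tumour 2 stood apart from the other 10 libraries, and tumour 3 did not go with them. Totals ran from 8843914 to 13344862 counts, so that 3 counts corresponded to 0.225 to 0.339 CPM. A list of 14 cardiomyocyte genes held 3.55% of the counts of tumour 1, 8.76% of tumour 2 and 13.8% of tumour 3. The 9 libraries of the other groups ranged from 13.7% to 14.9%. The protocol in the labels speaks of livers whereas the tissue label says heart. The 7 hepatocyte genes together held at most 7.40e-04% of the counts of any of the 9 libraries and 3.39e-04% of any tumour library. In bulk tissue, fewer cells of a type and less RNA per cell cannot be told apart.

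The promoters of the 3 pigment enzyme genes share a run of 10 bases, the longest common to the 3 windows, printed because these genes were among those that differed most between libraries. RefSeq windows of the 250 bases before the annotated start were matched for 6 of the 10 genes (build GRCm38.p6; 8 windows, 3 of them for Mitf). Pmel, Mlana, Sox10 and Slc45a2 had no entry. The capitals mark GTCATGTGCT, the core of the M-box that is known to bind Mitf, in Tyr (chr7:87493516-87493545, minus strand), Tyrp1 (chr4:80834155-80834184, plus strand) and Dct (chr14:118052379-118052408, minus strand), each a window of 30 bases read 5′ to 3′ on the strand of its gene.
Tyr: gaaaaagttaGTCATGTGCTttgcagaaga
Tyrp1: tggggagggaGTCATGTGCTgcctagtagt
Dct: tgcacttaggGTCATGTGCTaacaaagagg
The run began 23, 48 and 152 bases before the start of Tyr, Tyrp1 and Dct. On either strand, 51 of 32851 promoter windows of the same length held it (0.155%). It contains the shorter E-box CATGTG, which 12.3% of the windows held.

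The Oca2 window held only the shorter E-box, read as CACATG (chr7:56239561-56239590, plus strand). The furthest downstream of the 3 Mitf starts, the one melanocytes use, had TGACGTCA (chr6:97991619-97991648, plus strand), the palindromic site of the cAMP response factors, 153 to 146 bases before it. That run was present in 1.55% of windows. In the following 30-base windows the capitals mark these motifs.
Oca2: ttgagcttgctaCACATGgctggaattttc
Mitf: gaaaaaaagcaTGACGTCAagccagcaggg
The shared run, both forms of the E-box (CATGTG and the palindrome CACGTG, which 6.02% of windows held) and the cAMP site were searched on both strands. None was found in the window of Gpnmb or of the other 2 Mitf starts. The full windows of Tyr (chr7:87493513-87493762, minus strand) and Dct (chr14:118052247-118052496, minus strand) are printed because the 2 enzymes differed in their traces outside the tumour group. Dct had a second E-box, CACATG, 232 to 227 bases before its start.
Tyr: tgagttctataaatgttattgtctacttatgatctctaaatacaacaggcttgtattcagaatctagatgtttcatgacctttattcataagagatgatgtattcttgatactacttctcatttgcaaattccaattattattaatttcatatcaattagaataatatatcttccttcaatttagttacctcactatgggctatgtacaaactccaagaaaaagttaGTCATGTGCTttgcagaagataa
Dct: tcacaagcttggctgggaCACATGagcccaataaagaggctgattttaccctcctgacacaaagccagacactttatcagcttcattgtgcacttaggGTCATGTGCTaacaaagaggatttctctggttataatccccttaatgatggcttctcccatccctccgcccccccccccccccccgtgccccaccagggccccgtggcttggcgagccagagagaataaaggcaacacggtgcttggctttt
These letters describe the windows and were not tied to binding in these hearts.

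The 10 genes added up to 1.61% of all counts in tumour 1 (95% Wilson interval 1.608 to 1.622) and to 0.735% in tumour 2 (0.7305 to 0.7398). Their sum was 0.00815% in tumour 3 (0.00764 to 0.00869) and ranged from 0.00480% to 0.00811% over the remaining 9 libraries. The intervals cover counting error only. Most of the low share was Mitf, with 684 of the 933 member counts of tumour 3. Without Gpnmb and Mitf, the share was 1.18% in tumour 1, 0.543% in tumour 2 and 0.00178% in tumour 3 (0.00155 to 0.00204). The range over the 9 others was 5.51e-04% to 0.00104%. Tumour 1 and tumour 2 were above the other 10 libraries for each of the 10 genes, as they were for 33.1% of all genes. Tumour 3 lay above the 9 others on the narrower sum and, on the sum of all 10, was within the interval of tumour trained 2 (0.00756 to 0.00871).

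**Figure D1:**
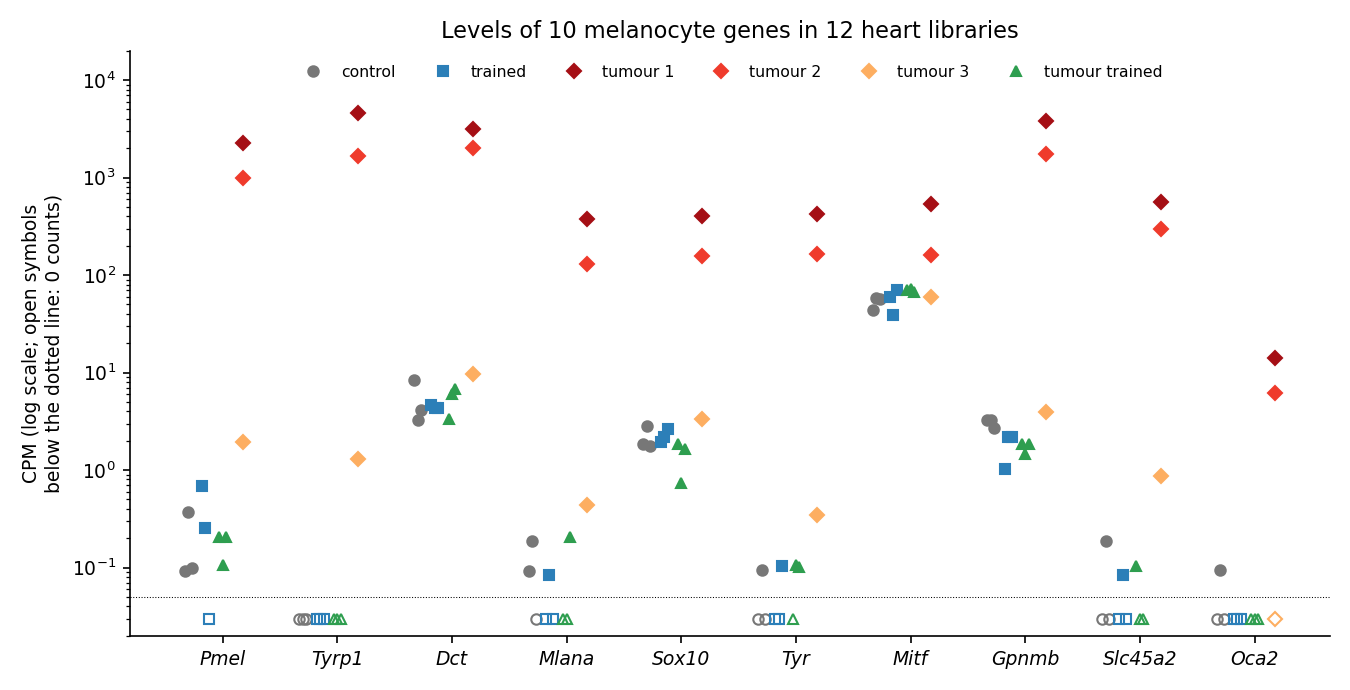
Level of each of the 10 genes (CPM, log scale) in the 12 libraries, 1 symbol a library; open symbols below the dotted line are libraries with 0 counts. Tumour 1 and tumour 2 lie above the other 10 libraries for all 10 genes, and tumour 3 lies among or just above the rest, with Tyrp1 at 1.31 CPM where 9 libraries had 0 counts.

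Tyr, Tyrp1 and Dct encode the enzymes of melanin synthesis, with tyrosinase (Tyr) at the first and rate-limiting step. Tyr (gene ID 22173) had 5640, 2115 and 4 counts in tumour 1, 2 and 3. Elsewhere it had 1 count in each of control 2, trained 3, tumour trained 2 and tumour trained 3, and 0 in the other 5 libraries. The tumour libraries thus lay at 423, 163 and 0.349 CPM, and the highest of the 9 others at 0.105 CPM. The groups did not overlap, but tumour 3 was nearer to the controls than to tumour 2.

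Tyrp1 (gene ID 22178), which acts late in the same pathway, had 61345, 21693 and 15 counts in tumour 1, 2 and 3. None of the 9 libraries outside the tumour group had a count. Its levels were 4597, 1672 and 1.31 CPM, which ranked it 7 among all genes by CPM in tumour 1 and 48 in tumour 2. Each of the 9 libraries was at least 13552-fold lower than tumour 1 and at least 4929-fold lower than tumour 2, with 3 counts per library as the floor. No other member was at 0 in all 9.

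Dct (gene ID 13190), the enzyme between the other two in the pathway, was counted in every library. It had 42146, 26109 and 110 counts in tumour 1, 2 and 3. Controls had 91, 35 and 42 counts, trained hearts 41, 52 and 41, and tumour trained hearts 32, 57 and 66. As CPM, tumour libraries were at 3158, 2012 and 9.61, and control hearts at 5.28 ± 2.75 (SD, n = 3). All 3 tumour libraries were above the other 9, whose highest was 8.41 CPM, and tumour 3 exceeded that value by little.

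Pmel and Mlana make structural proteins of the early melanosome. Pmel (gene ID 20431) had 30468, 12888 and 22 counts in tumour 1, 2 and 3. Its counts were 1, 4 and 1 in controls, 6, 3 and 0 in trained hearts, and 2, 1 and 2 in tumour trained hearts. Levels were 2283, 993 and 1.92 CPM in the tumour libraries and 0.189 ± 0.161 CPM in controls (SD, n = 3). Tumour 3 stood above the highest of the 9 others, which was trained 1 at 0.678 CPM.

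Mlana (gene ID 77836) had 5006, 1679 and 5 counts in tumour 1, 2 and 3. It was counted 1, 2 and 0 times in controls, 0, 1 and 0 times in trained hearts, and 0, 0 and 2 times in tumour trained hearts. With so few counts, the step from 0.205 CPM, the highest of the 9, to 0.437 CPM in tumour 3 is one of 3 counts.

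Slc45a2 and Oca2 encode transport proteins of the melanosome membrane. The counts of Slc45a2 (gene ID 22293) were 7516, 3891 and 10 in tumour 1, 2 and 3. The 9 other libraries had 4 in all: 2 in control 2 and 1 each in trained 2 and tumour trained 1. Its levels were 563, 299.9 and 0.874 CPM in the tumour libraries. Oca2 (gene ID 18431) was the lowest of the 10, with 186, 81 and 0 counts. Outside the tumour group it had 1 count, in control 2. Oca2 was the only member for which tumour 3 gave no count, and 3 counts there would be 0.262 CPM.

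Gpnmb (gene ID 93695) had 50629, 22808 and 45 counts in tumour 1, 2 and 3, or 3794, 1758 and 3.93 CPM, and ranked 9 and 43 by CPM in the first 2 of these libraries. Controls had 35, 35 and 27 counts, trained hearts 9, 26 and 21, and tumour trained hearts 18, 14 and 18. Tumour 3 was above all 9, of which the highest was control 2 at 3.27 CPM.

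The transcription factors had the highest traces relative to their tumour level. Sox10 (gene ID 20665) had 5403, 2015 and 38 counts in tumour 1, 2 and 3. It had 20, 30 and 18 counts in controls, 17, 26 and 25 in trained hearts, and 18, 7 and 16 in tumour trained hearts. Tumour 3, at 3.32 CPM, was above the highest of the 9 others, control 2 at 2.81 CPM.

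Mitf (gene ID 17342) was the one member well expressed in every heart. Its level was 52.9 ± 7.61 CPM in controls, 56.4 ± 16.0 in trained and 69.7 ± 3.22 in tumour trained hearts (SD, n = 3 each). In tumour 1, 2 and 3 it was 536, 162 and 59.8 CPM, from 7153, 2105 and 684 counts. Tumour 3 was above the 3 controls, the highest at 58.0 CPM, but inside the range of the 9 libraries, which reached 72.7 CPM. The tumour 3 level was 36.8% of that of tumour 2 for Mitf and 2.14% for Sox10, against 0.0784% for Tyrp1 and 0.478% for Dct.

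Per length, the order of the members was the same in tumour 1 and tumour 2, except that Tyrp1 and Dct changed places. The levels in tumour 1, in CPM per kilobase of exon, were 1689 for Tyrp1, 1434 for Dct, 1072 for Pmel, 840 for Gpnmb, 414 for Mlana, 189 for Slc45a2, 146 for Sox10, 101 for Mitf, 69.9 for Tyr and 4.45 for Oca2. In tumour 2, Dct was at 914 and Tyrp1 at 614, followed by Pmel (466), Gpnmb (389), Mlana (143), Slc45a2 (101), Sox10 (55.9), Mitf (30.5), Tyr (27.0) and Oca2 (1.99). Each value is from 1 library, so neighbours in this order have no replicate check. Lengths are the union of exons in GENCODE M21, which may not be the annotation behind the counts.

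In untrained mice, 9 of the 10 genes were higher in tumour than in control hearts by edgeR's quasi-likelihood test at a Benjamini-Hochberg adjusted p below 0.05, where 5.45% of all 17397 genes were called higher. The median log2 fold change was 9.59 over the 10 genes and 0.14 over all genes, and it stayed at 9.59 with Tyrp1 set to its lower bound. Pmel rose by 12.06 ± 1.96 (log2, SE; edgeR adjusted p = 0.0319), Gpnmb by 8.89 ± 1.55, Dct by 8.02 ± 1.38 and Sox10 by 6.09 ± 1.10, all with the same adjusted p. Mitf rose least among the called genes, by 1.93 ± 0.50 (edgeR adjusted p = 0.0433). Tyrp1 was at least 7330-fold higher (edgeR adjusted p = 0.0480), against 3 counts per control library.

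For the genes with 1 to 3 counts in the whole control group, the ratio of summed CPM is given with its exact interval for counting error. It was 1865 for Mlana (638 to 9047), 4775 for Slc45a2 (1322 to 39434) and 6490 for Tyr (1165 to 256382), each with an edgeR adjusted p of 0.0319. Oca2 was the gene not called: its ratio was 223 (39.7 to 8854) and its edgeR adjusted p 0.0571. DESeq2 likewise called 9 genes higher, all but Oca2, where it called 13.1% of genes. All 3 tumour libraries lay above all 3 controls for 9 genes, Oca2 being the exception, and for 14.5% of all genes.

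These calls depended on the libraries in the fit. Each of the 10 genes had an unadjusted p below 0.05 in each of the 12 fits that left out 1 library. The number past the adjusted threshold was 10 without tumour 3 (40.8% of all genes called in either direction) and 8 without tumour 1 (2.83%). It was 0 without tumour 2 or without any 1 of the 3 control, 3 trained or 3 tumour trained libraries (at most 0.138%). With edgeR's filter on low counts by group, 6 of the 10 genes were tested and 5 called (5.34% of genes higher). The 6 were Pmel, Tyrp1, Dct, Sox10, Mitf and Gpnmb. Of these, Pmel and Tyrp1 passed the filter only through the tumour libraries, the group in which they were high. With tumour 3 as the only tumour library, none of the 10 was called by edgeR (4 at an unadjusted p below 0.05), where 0.655% of all genes were called higher. Pmel was then at a log2 difference of 3.27 ± 0.83 (edgeR adjusted p = 0.0852) and Dct at 0.87 ± 0.41 (edgeR adjusted p = 0.507). That lone sample is assumed to vary like the other groups. The fitted difference of Oca2 turned to -1.86, from 1 control count.

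Between tumour 1 and tumour 2 the genes did not differ by 1 common factor. The CPM of tumour 1 divided by that of tumour 2 was 2.45 at the median of the 10 genes, and 2.20 for their sum. It was lowest for Dct (1.57, exact 95% interval 1.55 to 1.59) and Slc45a2 (1.88, 1.81 to 1.95). Gpnmb (2.16), Oca2 (2.23), Pmel (2.30), Tyr (2.59) and Sox10 (2.61) lay between. Tyrp1 (2.75, 2.71 to 2.79), Mlana (2.90, 2.74 to 3.07) and Mitf (3.30, 3.15 to 3.47) were highest.

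The intervals of Dct and Tyrp1 were far apart, so the difference between these 2 enzymes was larger than counting error in these 2 libraries. It has no replicate check, since each value is a ratio of 1 library to 1 other. With the control mean subtracted, Mitf rose to 4.42 and Dct stayed at 1.57. Among 10409 genes with at least 200 counts in the 2 libraries together, the median ratio was 1.19 and the 5th and 95th percentiles 0.444 and 2.78. As shares of the counts of the 10 genes, Tyrp1 made up 28.5% in tumour 1 and 22.7% in tumour 2, Dct 19.6% and 27.4%, Gpnmb 23.5% and 23.9%, and Pmel 14.1% and 13.5%.

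**Figure D2:**
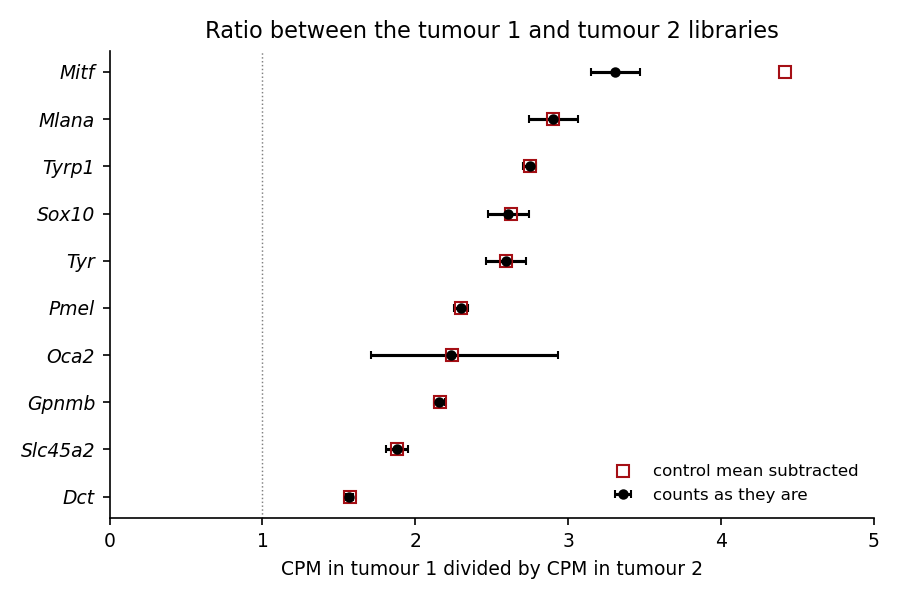
CPM in tumour 1 divided by CPM in tumour 2 for each of the 10 genes; filled points with exact 95% intervals use the counts as they are, and open squares have the mean of the 3 controls subtracted from both. The ratios run from 1.57 for Dct to 3.30 for Mitf, and subtraction moves Mitf, to 4.42, far more than the others.

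In tumour 3 a trace of the pigment genes was present. Pmel, Tyrp1, Mlana, Tyr, Slc45a2 and Oca2 together had 56 counts there and 1 to 10 counts in each of the 9 libraries of the other groups. As a share this was 4.89e-04% of tumour 3, against 0.825% of tumour 1 and 0.326% of tumour 2. Its CPM was 12.7 times that of the 9 libraries pooled (exact interval for counting error 8.18 to 20.0). By gene, the ratio to the 9 pooled was 19.8 for Slc45a2 (5.72 to 86.7), 8.73 for Pmel (4.54 to 16.9) and 1.91 for Dct (1.54 to 2.36). It was 7.93 for Tyr (1.48 to 42.6) and 6.61 for Mlana (1.60 to 26.0), each from 4 or 5 counts in tumour 3. Lower ratios were found for the rest: 1.76 for Gpnmb (1.24 to 2.44), 1.70 for Sox10 (1.17 to 2.43) and 1.01 for Mitf (0.936 to 1.10).

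Tumour 3 was above the 3 controls for 9 of the 10 genes, and so were 26.3% of all genes. It was above all 9 other libraries for 8 genes, Mitf and Oca2 being the exceptions, and so were 11.9% of all genes. Slc45a2 and Pmel had the highest ratios among genes counted on both sides, Tyrp1 had no count on the other side, and Mitf did not exceed the other libraries. All values in tumour 3 come from 1 library.

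**Figure D3:**
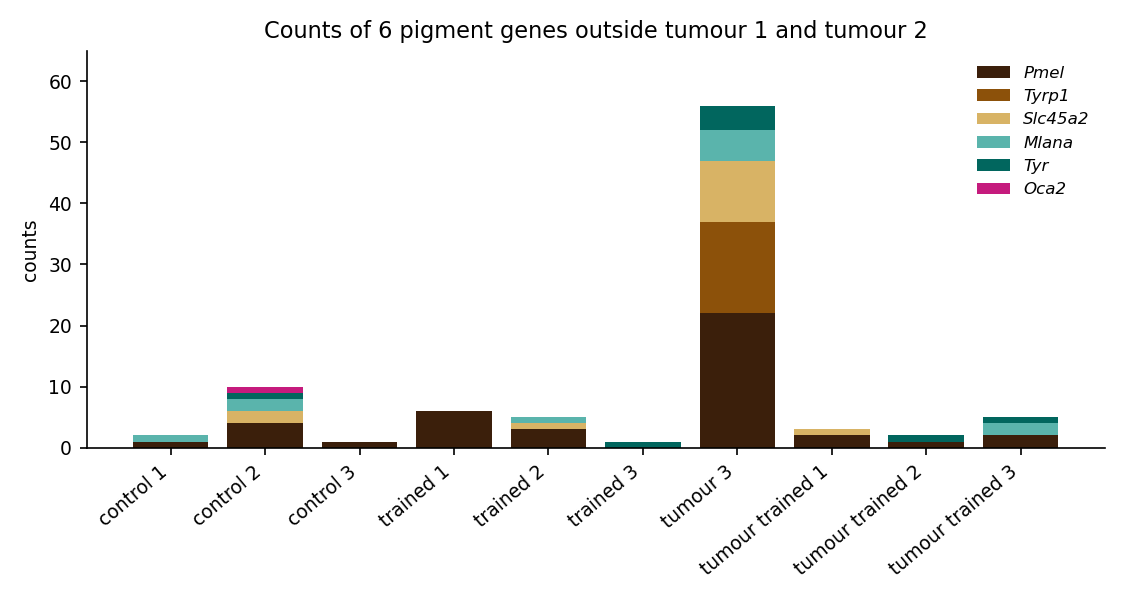
Counts (not scaled) of Pmel, Tyrp1, Slc45a2, Mlana, Tyr and Oca2, stacked, in the 10 libraries other than tumour 1 and tumour 2. Tumour 3 has 56 counts, of which 15 are Tyrp1, and the others have 1 to 10 with no Tyrp1.

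The proportions of the counts of these genes to each other differed between the tumour libraries, with no level of the other groups subtracted. The 9 libraries of the other groups held 5.02 ± 1.70 CPM of Dct, 1.93 ± 0.596 of Sox10 and 0.224 ± 0.202 of Pmel (SD, n = 9). They had no Tyrp1 count, and tumour 3 was at 9.61 CPM of Dct, 3.32 of Sox10 and 1.92 of Pmel. Dct counts per Tyrp1 count were 0.687 in tumour 1, 1.20 in tumour 2 and 7.33 in tumour 3 (4.26 to 13.5). Sox10 counts per Tyrp1 count were 0.0881, 0.0929 and 2.53 (1.36 to 4.96) in tumour 1, 2 and 3. For Pmel they were 0.497, 0.594 and 1.47 (0.727 to 3.04).

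Among mice given melanoma cells, 9 of the 10 genes were lower in tumour trained than in untrained tumour hearts by edgeR (adjusted p below 0.05), where 5.93% of all genes were called lower. The median log2 difference was -10.23 over the 10 genes, also with Tyrp1 and Oca2 at their bounds, and -0.06 over all genes. The log2 difference was -12.22 ± 1.99 (SE) for Pmel, -9.74 ± 1.62 for Gpnmb, -8.03 ± 1.38 for Dct and -6.72 ± 1.15 for Sox10, each with an edgeR adjusted p of 0.0299. The ratio of summed CPM, tumour to tumour trained, was 2560 for Mlana (exact interval for counting error 708 to 21143), 2969 for Tyr (822 to 24521) and 8738 for Slc45a2 (1568 to 345155), with the same edgeR adjusted p. Tyrp1 was at least 6712-fold lower in tumour trained hearts (edgeR adjusted p = 0.0474) and Oca2 at least 21.6-fold lower (edgeR adjusted p = 0.0491). Mitf, at -1.56 ± 0.50, did not pass (edgeR adjusted p = 0.0717).

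DESeq2 called 9 lower, where it called 14.4% of genes, but not the same 9: Mitf was called (DESeq2 adjusted p = 0.0178) and Oca2 was not (DESeq2 adjusted p = 0.162). This comparison shares its tumour libraries with the one against control, and the level of tumour 1 and tumour 2 enters both. The 3 tumour trained libraries had 3, 2 and 5 counts of the 6 pigment genes without Dct, inside the 1 to 10 of control and trained hearts. All 3 tumour libraries were above all 3 tumour trained libraries for 8 genes, Mitf and Oca2 being the exceptions, and for 13.5% of all genes. Leaving out 1 library gave 0 calls without control 2, tumour 2 or any 1 of the tumour trained libraries. Those fits called at most 0.0345% of all genes in either direction. The number was 7 without any 1 of the other control or trained libraries (2.21% to 5.61% of all genes). It was 8 without tumour 1 (3.37%) and 10 without tumour 3 (37.7%). The same filter left 4 of 6 called (7.25% of genes lower). With tumour 3 alone no member was called by edgeR, though 6 had an unadjusted p below 0.05, and 0.5% of all genes were called lower.

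The test of whether the tumour difference depended on training, the interaction of tumour and training, called none of the 10 genes by edgeR, with 5 at an unadjusted p below 0.05. It called 0.023% of all genes lower. Tyrp1 and Oca2 had 0 counts in trained and tumour trained hearts and no usable SE by edgeR. For Mlana, Tyr and Slc45a2 the SE was 10.3, 11.2 and 11.5 (log2), so the edgeR test could not decide for these genes either. The estimates were -7.75 ± 1.68 for Dct, -8.97 ± 2.01 for Gpnmb and -6.76 ± 1.56 for Sox10 (log2, SE; edgeR adjusted p = 0.309 each). DESeq2 called 5 of the 10 in this test (Pmel, Dct, Sox10, Tyr and Gpnmb), where it called 1.92% of genes lower. Without tumour 3, edgeR called 7. That fit called 40.8% of all genes in tumour against control, and its share for the interaction is not reported here.

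No difference between trained and control hearts passed for any of the 10 genes by edgeR (0 of 10, also at an unadjusted p below 0.05, and 0% of all genes). DESeq2 called none of them either, and 0.0115% of all genes. Between tumour trained and trained hearts, both tools called none of the 10 (DESeq2 0.0173% of all genes), and the same held between tumour trained and control hearts (DESeq2 0.0698%). In both, edgeR called 0% of all genes and none of the 10 had an unadjusted p below 0.05. The standard errors of these differences depended on tumour 1 and tumour 2, which are in neither group: without both, that of Mitf for trained against control was 0.17 in place of 0.49 and that of Gpnmb 0.29 in place of 1.37. Gpnmb then had an unadjusted edgeR p of 0.0180 for trained against control and 0.0101 for tumour trained against control, and was not called (edgeR adjusted p = 0.592 and 0.156). For Mitf the log2 difference was 0.07 ± 0.49 for trained against control, 0.30 ± 0.49 for tumour trained against trained and 0.36 ± 0.49 for tumour trained against control (SE). For Dct the same differences were -0.28 ± 1.14, 0.27 ± 1.14 and -0.01 ± 1.13.

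A few groups were apart without passing a test that used all 12 libraries. Gpnmb was 2.68 to 3.27 CPM in controls, 1.02 to 2.20 in trained and 1.47 to 1.87 in tumour trained hearts, so that controls lay above both. Sox10 was lower in all 3 tumour trained libraries (0.737 to 1.87 CPM) than in all 3 trained ones (1.92 to 2.61 CPM). Mitf was higher in all 3 tumour trained libraries than in all 3 controls. Over all genes, 3.79% were lower in every trained than in every control library, 6.09% lower and 7% higher in tumour trained than trained, and 19% higher and 10.9% lower in tumour trained than control. None of the 10 was higher in every tumour trained than in every trained library. When only tumour trained and control libraries were fitted, Mitf and Gpnmb passed, and so did 13.9% of all genes.

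As summed shares, proliferation genes were higher and cardiomyocyte genes lower in tumour 1 and tumour 2 than in the other libraries. Proliferation genes, all 8 of which were higher in tumour than in control hearts (5.45% of all genes were), had a summed share of 0.110% in tumour 1, 0.0347% in tumour 2 and 6.11e-04% in tumour 3. Elsewhere the share was 3.53e-04% to 0.00114%. The cardiomyocyte share was 24.5% of the control mean in tumour 1, which had the larger melanocyte share, and 60.5% in tumour 2. In tumour 3 it was 95.6%. None of the 14 cardiomyocyte genes was called in tumour against control (median log2 -0.83), where 6.59% of all genes were called in either direction. The part of both lists in the results was not tested.

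**Figure D4:**
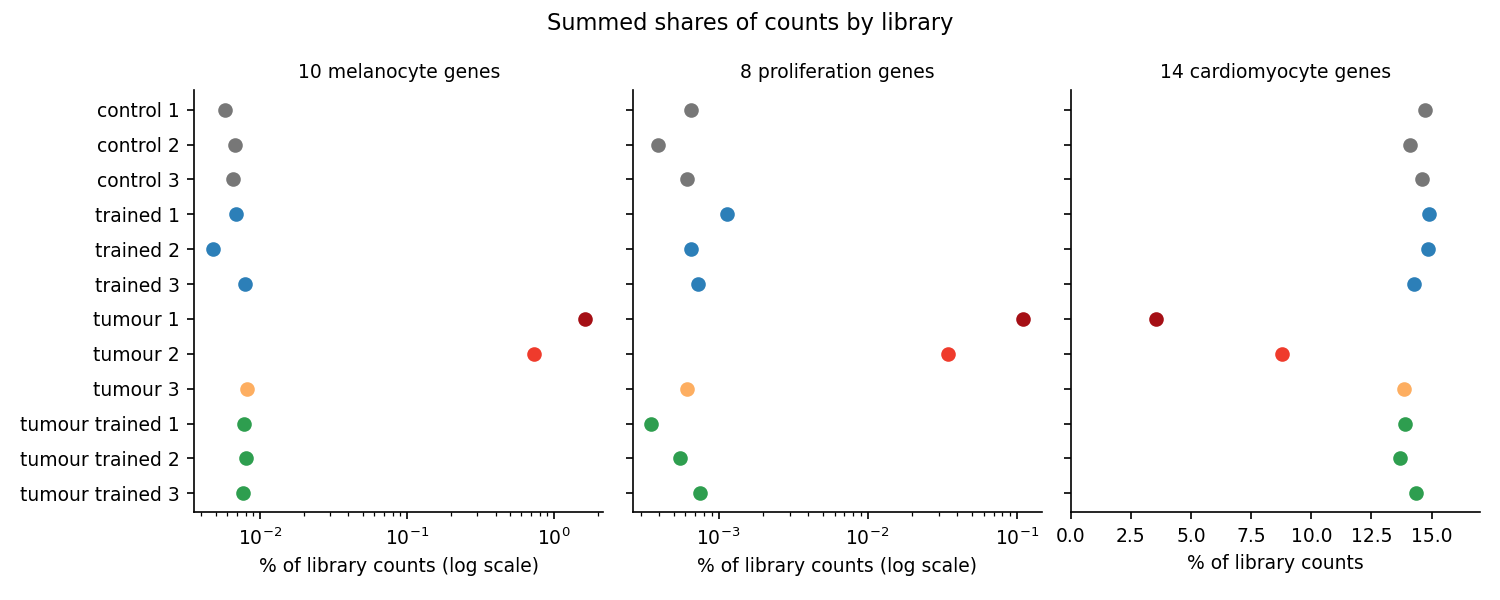
Share of each library's counts (%) held by the 10 melanocyte genes (log scale), 8 proliferation genes (log scale) and 14 cardiomyocyte genes (linear scale from 0), 1 point a library. Tumour 1 and tumour 2 have high melanocyte and proliferation shares and cardiomyocyte shares of 3.55% and 8.76%, and tumour 3, at 13.8%, lies with the other 9 libraries.

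Beside Sox10, Schwann cell genes had summed shares of 0.0389%, 0.0143% and 0.00871% in tumour 1, 2 and 3. The 9 others had 0.00841% to 0.0104%. The median log2 difference of this list between tumour and control hearts was 0.19, against 0.14 over all genes. Beside Gpnmb and Mitf, macrophage genes held 0.0575%, 0.0857% and 0.0375%, against 0.0358% to 0.0508%. Their summed share was higher in tumour 2 than in tumour 1, the opposite order to the sum of the 10 melanocyte genes. Of the 12, 1 was called higher, Trem2, chosen after its value was seen. This is near the 5.45% of all genes. The part of glia and macrophages in the results was not tested.

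Lysosome genes held 0.385%, 0.465% and 0.384% in tumour 1, 2 and 3 and 0.318% to 0.377% in the 9 others. Of these 12 genes 1 was called higher, the lysosomal protease Ctsz, also near the 5.45% of all genes. Keratinocyte markers (4 in the table) reached 3.84e-04% at most in the 9 libraries and 3.58e-04% in the tumour libraries. Lung epithelium markers (2 in the table) reached 5.19e-05% and 1.72e-04%. Erythrocyte genes held 0.0540%, 0.0632% and 0.189% in tumour 1, 2 and 3 and 0.0592% to 0.332% elsewhere.

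Other melanocyte genes, chosen with earlier results of these data known, followed the members in part. Of 12 regulators and receptors, 4 were higher in tumour than in control hearts and none lower (median log2 1.54, against 0.14 over all genes, of which 5.45% were called higher). These were Pax3 and Tfap2a, neural crest factors, Cited1, a coactivator, and Erbb3, a receptor for neuregulin. The 3 tumour libraries had 69.4, 33.3 and 0.175 CPM of Tfap2a, and controls 0.159 ± 0.0582 CPM (SD, n = 3). Pax3 was at 141, 40.1 and 0 CPM, with 2 counts over the 9 libraries. Mc1r, the melanocortin receptor that drives pigmentation, was at 162, 53.3 and 0 CPM and at 0 counts in the 9, and missed the threshold (edgeR adjusted p = 0.0669). Kit, at 25.3, 13.6 and 1.57 CPM, and Ednrb, at 16.9, 24.5 and 20.3 CPM, did not pass (chosen after their values were seen).

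Of 9 melanosome channels and transporters, 3 were higher and none lower (median log2 2.10), where 5.45% of all genes were higher. They were Slc24a5, an ion exchanger of the melanosome, at 321, 130 and 0.175 CPM in tumour 1, 2 and 3, the cation channel Trpm1 at 151, 64.9 and 0.0874 CPM, and the copper pump Atp7a at 103, 38.5 and 11.5 CPM. Controls were at 0.596 ± 0.276, 0 and 9.50 ± 1.17 CPM. Gpr143, a receptor of the melanosome membrane, was at 13.6, 8.25 and 0 CPM and at 0 counts in the 9, and missed the threshold (edgeR adjusted p = 0.0736).

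Of 20 genes that build or move melanosomes, 10 were higher and none lower (median log2 1.55), again beside 5.45% of all genes. Rab38, a small GTPase that helps to deliver the pigment enzymes, was at 169.9, 70.5 and 0.175 CPM, against 0.0620 ± 0.0537 CPM in controls. The 3 parts of the melanosome transport complex were all called: Rab27a (146, 58.6 and 5.94 CPM), Mlph (465, 135 and 0.786 CPM) and Myo5a (354, 85.9 and 6.11 CPM). Their control means were 3.79, 0.694 and 6.26 CPM. None of the 3 relatives of Mitf was called, with log2 differences of -0.63 ± 0.20 for Tfeb, 0.20 ± 0.18 for Tfe3 and 0.42 ± 0.92 for Tfec (SE).

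Between tumour trained and tumour hearts, 4 of the 12 regulators, 4 of the 9 channels and transporters and 8 of the 20 melanosome genes were lower, where 5.93% of all genes were lower. None was higher, and no Mitf relative was called. With tumour 3 as the only tumour library, the median log2 difference from control was 0.30 for the regulators and 0 over all genes. It was 0.06 for the channels and transporters and 0.11 for the melanosome genes.

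**Figure D5:**
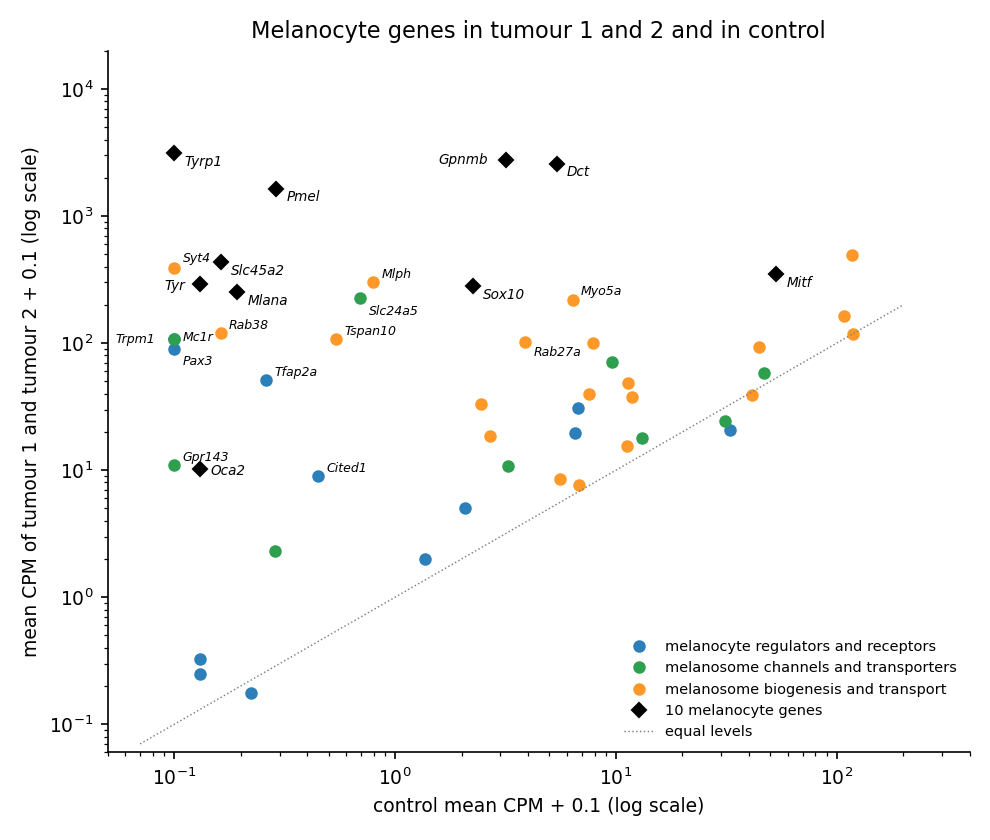
Mean CPM of tumour 1 and tumour 2 against the mean CPM of the 3 controls, both with 0.1 added so that 0 can be drawn on log axes, for the 10 genes (black diamonds) and 3 lists of other melanocyte genes; genes far above the line of equal levels are named. Trpm1 and Mc1r, both at 0 in controls, overlap at the left, and Mitf is the member with the highest control level, 52.9 CPM.

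The genes whose pattern over the 12 libraries was nearest to the mean of Pmel, Tyrp1, Dct and Mlana were found by the root mean square distance of log2(CPM + 0.5), each profile centred on its mean. The 10 nearest outside the members were Syt4 (0.39), Car6 (0.59), Met (0.89), Mlph (0.98), Rab38 (0.99), Trpm1 (1.00), Mc1r (1.04), Slc24a5 (1.05), Nrcam (1.06) and Pax3 (1.17). Provisional symbols (Gm and Rik names) were left out of this ranking. Among the members outside those 4, Slc45a2 (0.32), Gpnmb (0.42) and Tyr (0.53) were near, Sox10 (1.35) lay between, and Oca2 (2.21) and Mitf (2.95) were far. The 3 tumour libraries had 8057, 2271 and 4 counts of Syt4, a synaptotagmin, and the 9 others none. Car6, a secreted carbonic anhydrase, had 9483, 1224 and 4 counts and 0 in the 9. Its ratio of tumour 1 to tumour 2, 7.53, was above that of every member. Met, a receptor tyrosine kinase, was counted in all 12 libraries, with 10032, 4694 and 19 counts in the tumour libraries and 3 to 27 in each of the 9 others.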

How the data were processed

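Heart RNA of 12 libraries was sequenced, from Trizol RNA and a Vazyme VAHTS Universal V8 kit per the labels' protocols. The deposited values are estimated counts per gene that the authors did not normalize; 7.09% to 8.92% of values in a library were not whole, and all were rounded. HISAT2 2.2.1, featureCounts and the builds GRCm39 and mm10 are named in the submitters' processing notes. Annotation, strand setting, gene filter and handling of shared reads were not given in the sources used here. Reads of overlapping or antisense genes therefore cannot be separated. Of the gene IDs, 17288 matched RefSeq, with all 10 members among them.

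Groups and replicate numbers came from the sample titles. Plain CPM used the library total. Tests used edgeR 4.0.16 in R 4.3.3: 1 quasi-likelihood fit of the 12 libraries, TMM scaling, no filter on low counts, 8 residual degrees of freedom, 6 contrasts and Benjamini-Hochberg adjustment over all 17397 genes at 0.05. The SE is the log2 fold change divided by the square root of F. The scripts were tested on simulated data. Replicates of a group differed by more than sampling noise in every pair, and none was merged.

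The members and gene lists were chosen with earlier results of these data known. Named genes are the 10 members, up to 5 genes per melanocyte, Mitf-relative or lysosome list by smallest p in tumour against control, the 10 nearest in pattern, and any marked as chosen after their values were seen. Alternatives were DESeq2 1.42.0, other size factors, filters on low counts, a block for the replicate number, robust dispersion, only the groups compared, and leaving out libraries. Some genes are not reported here.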

Additional observations from a re-analysis of the deposited data

How the results depend on the processing

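A filter on low counts (edgeR's filterByExpr, or a CPM of at least 1 in 3 libraries) left only 6 members tested. Pmel and Tyrp1 passed it only through the tumour libraries. Of the 6, 5 were called in tumour against control and 4 in tumour trained against tumour. Without tumour 1 and 2 together, and with only the groups compared in the fit, both counts were 0. Leaving out 1 library gave 0 to 10 called in each, 0 to 7 in the interaction, and 0 in the other contrasts. Of all genes, 0.0230% to 40.8% were then called in tumour against control and 0.0172% to 37.7% in tumour trained against tumour. The shares for the interaction are not reported here. DESeq2 called 9, 9 and, in the interaction, 5. Only the groups compared gave 2 for tumour trained against control. Oca2 was at -1.86 without tumour 1 and 2; of 212 log2 values under 22 alternatives, the other 211 stayed positive. Adjusted p over these alternatives ran from 6.15e-10 to 0.291 for Pmel and 7.80e-05 to 0.935 for Mitf. The median log2 of all genes in tumour against control was 0.14, 0.36 with library size alone and 1.58 with cardiomyocyte size factors. All 10 members were called with library size alone (10.8% of all genes called in either direction) and with cardiomyocyte size factors (53.6%). The summed share in tumour 1 was 1.27% on the TMM library size and 1.18% without Gpnmb and Mitf, in tumour 2 0.660% and 0.543%, and in tumour 3 0.00178% without those genes. With the replicate number as a block, 9 members were called in both contrasts, and 232 and 160 genes in place of 1147 and 1245. In tumour against control Mitf was then not called (edgeR adjusted p = 0.0849) and Oca2 was (edgeR adjusted p = 0.0485). The numbers do not pair the samples: deviations of same-numbered libraries correlated at -0.309 to 0.266, with 3 of 18 pairs over 0.1. The cause of these changes was not tested. Genes near 1 count a library (Oca2, Tyr, Mlana and Slc45a2 outside the tumour group) are limited by depth.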

Other observations

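Of all genes, 640 had 0 counts in the 9 libraries outside the tumour group, and 11 of these had at least 100 counts in both tumour 1 and tumour 2, a cut-off chosen after the data were seen. Besides Tyrp1, Car6, Syt4, Mc1r and Gpr143 they were Ankfn1 (1117 and 278 counts), Foxr2 (938 and 246), Gsdmc (718 and 214), Syt9 (528 and 170), Xlr3c (369 and 189) and Brs3 (287 and 101). Foxr2 is a forkhead factor, Gsdmc a gasdermin, Syt9 a synaptotagmin and Brs3 a bombesin receptor subtype. In tumour 3, Foxr2, Xlr3c and Brs3 were at 0 counts, Gsdmc had 1 count, and Ankfn1 and Syt9 had 2 counts each. Tyrp1, Car6 and Syt4 were the 3 genes with at least 1000 counts in both libraries.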
